A study of Mus musculus with 8 samples.

Results

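Rhox5, Rhox6, Rhox9, Xlr3a, Xlr3b, Trap1a and Fmr1nb are 7 protein-coding genes of the mouse X chromosome that were followed here among the 32334 genes listed in the RNA-seq tables. They were picked by symbol after their difference between mutant and wild-type cells had been seen in these libraries. Their own values are therefore given as a description, without a test. The study compared wild-type (WT) cells of R1, a male mouse embryonic stem cell (ESC) line, with dCD cells, an R1-derived line in which point mutations remove the catalytic activity of the H3K4 methyltransferases MLL3 (KMT2C) and MLL4 (KMT2D). Its question was what the loss of enhancer-associated H3K4 methylation does to cells on the way to germline competence. PolyA RNA came from 2 libraries each of WT and dCD epiblast-like cells (EpiLC) at day 2, and from 2 libraries each of WT and dCD epiblast stem cells (EpiSC) kept for at least 8 days.

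All 8 libraries started from ESC adapted to LIF with the MEK inhibitor PD0325901 at 0.4 μM and the GSK3β inhibitor CHIR99021 at 3 μM. EpiLC and EpiSC were then both made on fibronectin with activin A at 20 ng per ml and bFGF at 12 ng per ml, and EpiLC medium also held knockout serum replacement. The dCD cells are 1 line, made before this study, so the dCD genotype and its line cannot be told apart. No label says whether the 2 libraries of a group came from separate cultures, and p-values then measure only the spread between these libraries, which may be technical. Values are normalised abundances, that is TPM (reads per transcript length, as a share of the library) multiplied by 1 factor per library. The sum over all genes ran from 813537 to 1033290 per library, and the read depth behind each value is unknown. Each stage has a table of its own, so dCD was tested against WT within a stage and levels of the 2 stages are only set side by side.

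The markers that define epiblast cells were present at both stages. The summed level of 11 of them, among them Pou5f1, Fgf5 and Otx2, was 3323 to 3356 in WT and 2919 to 3304 in dCD EpiLC, and 2578 to 2580 in WT and 2262 to 2390 in dCD EpiSC. Of these 11, 4 were called higher in dCD EpiLC, and 3 higher and 1 lower in dCD EpiSC, which the sums, made up mostly of Pou5f1 and Dnmt3b, do not show. Markers of other cell states moved with the genotype too. The 11 naive pluripotency markers with a value summed to 23.7 to 24.0 in WT and 99.9 to 109 in dCD EpiLC, with 7 of 8 tested higher, and fibroblast markers to 72.3 to 77.0 and 18.5 to 23.0, with 3 of 7 tested lower. Most of the fibroblast fall in EpiLC was Col3a1, at 44.1 and 40.8 in WT and 1.15 and 2.43 in dCD. Col1a1 and Postn were also called lower there, while Col1a2 had higher values in dCD and was not called. In EpiSC the naive markers summed to 28.5 to 30.1 in WT and 33.2 to 44.1 in dCD (3 of 8 tested higher, 2 lower), and the fibroblast markers moved the other way than in EpiLC, from 25.9 to 27.0 in WT to 38.0 to 45.4 in dCD (2 of 7 higher). In EpiSC the trophoblast markers summed to 61.4 to 94.1 in WT and 211 to 228 in dCD (4 of 9 tested higher, 1 lower), the extraembryonic endoderm markers to 571 to 640 and 830 to 865 (5 of 10 higher, 1 lower), and the germ cell markers to 26.0 to 38.5 and 117 in each dCD library (4 of 6 higher, 1 lower). Most of the trophoblast sum was Eomes, at 66.3 and 39.8 in WT and 195 and 167 in dCD EpiSC. Cdx2, Gata3 and Tead4 were also called higher there and Ascl2 lower, while Krt7, Esx1, Hand1 and Plac1 were not called. Most of the germ cell sum in EpiSC was Kit, Prdm1 and Tfap2c, which were called higher with Dnd1. Mael was called lower, at 0.542 and 0.458 in WT and 0.0208 and 0.0366 in dCD EpiSC, and Sycp1 was not called. Of the germ cell markers too low to be tested, Dppa3 had lower and Nanos3 higher values in dCD EpiSC. In dCD EpiLC the trophoblast, extraembryonic endoderm and germ cell sums were 22.2 to 23.9, 419 to 511 and 37.3 to 43.5, against 16.2 to 18.8, 275 to 292 and 28.2 to 31.8 in WT. Of those tested, 3 of 9, 1 of 10 and 2 of 6 were called higher, and 1 trophoblast marker was called lower. The endoderm marker called higher was Apoe, at 116 and 136 in WT and 312 and 217 in dCD EpiLC. Of the 13 endoderm markers with a value, 7 stayed under 1 in every EpiLC library. No marker with a value was at 0 in all libraries of a stage, and the part these cell states have in the values below was not tested. In such bulk samples, fewer cells of a type and less RNA per cell cannot be told apart.

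Rhox genes encode reproductive homeobox proteins from a large gene cluster on the X chromosome. Rhox5, long known as Pem, is made in placenta, in extraembryonic tissues and in the Sertoli cells of the testis, and its promoter is a classic example of one that DNA methylation keeps silent. Xlr3 genes belong to the X-linked lymphocyte-regulated family, whose proteins carry a COR1 domain related to that of the synaptonemal complex protein SYCP3. Trap1a encodes the P1A tumour rejection antigen of mouse mastocytoma, and Fmr1nb, a neighbour of the fragile X gene Fmr1, encodes a testis antigen. Genes of this kind are usually expressed in germ cells or in the placenta and kept off in somatic tissues.

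Xlr3a and Xlr3b are near copies, and a further copy, Xlr3c, lies beside them. In the annotated mouse transcripts the coding sequences of Xlr3a and Xlr3b differed at 12 of 678 positions (98.23% identical), and those of Xlr3b and Xlr3c were 99.41% identical. Over all 678 bases the 3 copies differed at 14 positions, and Xlr3b and Xlr3c at 4. A stretch of 60 coding bases, from base 189 to base 248, was chosen because the copies differ most there. Xlr3b and Xlr3c differ at all 3 of its differing positions, so it does not show their closeness. These 3 positions are in capitals.

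Xlr3a: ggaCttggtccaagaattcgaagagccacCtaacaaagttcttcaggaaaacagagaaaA

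Xlr3b: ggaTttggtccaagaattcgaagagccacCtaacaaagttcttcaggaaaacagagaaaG

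Xlr3c: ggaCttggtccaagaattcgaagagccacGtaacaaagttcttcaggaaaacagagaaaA

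Of all stretches of 31 bases in the annotated transcripts, 40.33% of those in Xlr3a and 31.24% of those in Xlr3b occurred in no other gene, against 17.82% in Xlr3c. Reads from the shared part were divided among the copies by the quantification, so the split between Xlr3a and Xlr3b is uncertain and their sum is given beside them. For Rhox6 and Rhox9, whose coding sequences were 90.82% identical, the shares were 76.73% and 90.92%. Rhox5 and Fmr1nb shared no such stretch with another gene, and Trap1a had 99.22% of its own.

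The windows around the annotated starts, from 250 bases before to 50 bases after, show 2 genes that moved together at both stages and 2 that were higher in dCD EpiLC and lower in dCD EpiSC. They are RefSeq sequence of the GRCm38.p6 build. In Xlr3a (chrX:73097046-73097345, minus strand), Xlr3b (chrX:73191929-73192228, plus strand) and Trap1a (chrX:139333433-139333732, plus strand) the capitals mark each CCAAT, read on either strand, the letters of the CCAAT box. In Fmr1nb (chrX:68761589-68761888, plus strand), which has no CCAAT in its window, they mark each CpG, the base pair step that DNA methylation acts on in mammals.

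Xlr3a: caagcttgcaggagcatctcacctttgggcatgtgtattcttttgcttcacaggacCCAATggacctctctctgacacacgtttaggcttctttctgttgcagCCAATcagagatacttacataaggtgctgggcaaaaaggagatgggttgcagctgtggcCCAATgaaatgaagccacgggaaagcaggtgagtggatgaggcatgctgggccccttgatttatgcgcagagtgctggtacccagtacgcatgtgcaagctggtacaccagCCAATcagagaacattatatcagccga

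Xlr3b: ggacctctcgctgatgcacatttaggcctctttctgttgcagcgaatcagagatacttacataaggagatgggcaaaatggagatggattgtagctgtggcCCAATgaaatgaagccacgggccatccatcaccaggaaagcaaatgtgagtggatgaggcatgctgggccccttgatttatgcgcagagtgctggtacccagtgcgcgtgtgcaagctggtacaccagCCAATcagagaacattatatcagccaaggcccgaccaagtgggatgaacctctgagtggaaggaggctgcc

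Trap1a: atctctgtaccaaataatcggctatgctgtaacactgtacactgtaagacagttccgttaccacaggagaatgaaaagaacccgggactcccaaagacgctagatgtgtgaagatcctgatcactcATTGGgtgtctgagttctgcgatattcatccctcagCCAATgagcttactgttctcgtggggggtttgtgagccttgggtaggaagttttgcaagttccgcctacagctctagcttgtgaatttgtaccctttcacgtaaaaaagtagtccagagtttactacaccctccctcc

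Fmr1nb: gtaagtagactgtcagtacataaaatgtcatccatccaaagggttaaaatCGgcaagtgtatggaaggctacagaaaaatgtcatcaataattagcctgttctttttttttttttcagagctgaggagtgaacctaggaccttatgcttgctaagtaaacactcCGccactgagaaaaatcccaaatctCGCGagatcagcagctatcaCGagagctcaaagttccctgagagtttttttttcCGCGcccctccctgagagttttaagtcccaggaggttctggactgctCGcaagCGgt

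CCAAT was found 4 times in the Xlr3a window and 2 times each in the Xlr3b and Trap1a windows. At least 1 copy was in 37.41% and at least 4 copies were in 1.062% of the 32851 RefSeq windows of that length. The window of Xlr3c held 3. The Xlr3a, Xlr3b, Trap1a and Fmr1nb windows held 5, 7, 8 and 9 CpG dinucleotides, which is more than in 38.04%, 47.9%, 51.35% and 54.22% of all windows. The motif matches are a description of letters and say nothing of binding.

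In EpiLC all 7 genes had higher values in both dCD libraries than in either WT library, and the ratio of the dCD mean to the WT mean ran from 1.62 for Fmr1nb to 25.5 for Rhox6. Rhox5 (chromosome X, 37804842 to 37808876 of GRCm38, plus strand) led the Rhox cluster. Its abundance was 10.1 and 12.6 in the WT EpiLC libraries and 99.1 and 71.9 in the dCD libraries, a 7.54-fold difference of the means. On the scale of log2(abundance + 1), which is used for all log2 values here and understates the change of genes with low values, the difference was 2.80 ± 0.19 (SE, n = 2 libraries a group).

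Rhox6 and Rhox9, once named Psx1 and Psx2, are placental and germ cell homeobox genes, and the histone demethylase KDM6A, a partner of MLL3 and MLL4 in their complex, is known to raise both in mouse ESC. Rhox6 (37826910 to 37829857, plus strand) was at 0.182 and 0.161 in WT EpiLC and at 4.90 and 3.82 in dCD EpiLC (log2 difference 2.19 ± 0.13). Rhox9 (37899097 to 37901770, minus strand) was at 0.0536 and 0.363 in WT and at 3.00 and 1.65 in dCD (1.44 ± 0.21). Both genes were thus near 0 in WT EpiLC and low but above 1 in each dCD library, and they passed the filter on low values through the dCD libraries alone.

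Xlr3a (73086293 to 73097095, minus strand) was at 1.14 and 1.02 in WT EpiLC and at 21.1 and 20.7 in dCD EpiLC, 19.3-fold by the means (log2 difference 3.39 ± 0.15). Xlr3b (73192207 to 73202930, plus strand) was at 1.37 and 2.04 in WT and at 18.5 and 16.7 in dCD, 10.4-fold (2.79 ± 0.16). Added together with Xlr3c, so that the split among copies does not matter, the abundance was 3.18 and 3.71 in WT and 42.6 and 40.2 in dCD EpiLC.

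Trap1a (139333683 to 139338169, plus strand) was at 6.7 and 7.0 in WT EpiLC and at 86.4 and 66.5 in dCD EpiLC, 11.2-fold (log2 difference 3.29 ± 0.18). Fmr1nb (68761839 to 68804567, plus strand) differed least. It was already at 42.0 and 49.3 in WT EpiLC and at 87.9 and 59.5 in dCD EpiLC, 1.62-fold (0.66 ± 0.22), and the gap between the groups was smaller than the gap between the 2 dCD libraries. Its log2 difference was 0.38 without dCD replicate 1 and 0.94 without dCD replicate 2. Over all 12717 genes tested, 12 had a larger log2 difference in EpiLC than Xlr3a, 13 than Trap1a, 28 than Rhox5, 29 than Xlr3b, 59 than Rhox6, 208 than Rhox9 and 935 than Fmr1nb.

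With limma, 6 of the 7 genes passed an adjusted p of 0.05 in EpiLC, all of them higher in dCD, and Fmr1nb did not. This was the case for 10.1% of all genes tested, with 7.56% higher and 2.57% lower, and both dCD libraries lay above both WT libraries for 26.8% of them. The 7 genes were chosen on this comparison, so nothing is read from their count.

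**Figure D1:**
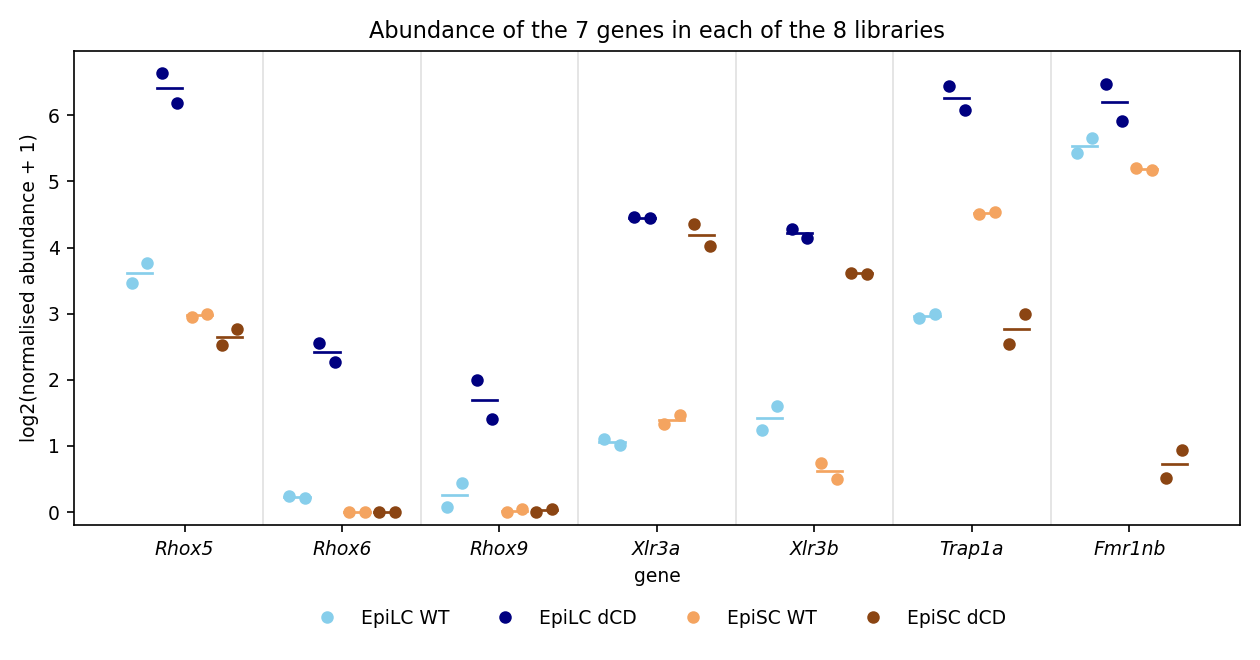
Abundance of the 7 genes in each library, as log2(normalised abundance + 1) on the vertical axis, with 1 point per library, a short bar at the mean of the 2 libraries of a group, and colours for the 4 groups. In EpiLC the dCD points lie above the WT points for all 7 genes, while in EpiSC they lie above for Xlr3a and Xlr3b, below for Rhox5, Trap1a and Fmr1nb, and at or near 0 in both groups for Rhox6 and Rhox9.

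In EpiSC the 7 genes no longer moved one way. The Xlr3 copies were higher in dCD, as in EpiLC. Xlr3a was at 1.52 and 1.75 in WT EpiSC and at 19.5 and 15.2 in dCD EpiSC, 10.6-fold (log2 difference 2.79 ± 0.15). Xlr3b was at 0.669 and 0.416 in WT and at 11.3 and 11.2 in dCD, 20.7-fold (2.99 ± 0.16). The sum of the 3 copies was 2.39 and 2.37 in WT and 31.9 and 27.2 in dCD EpiSC, and 8 genes had a larger log2 difference than Xlr3b.

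Both antigen genes were lower in dCD EpiSC. Fmr1nb was at 36.0 and 35.2 in WT EpiSC, close to its WT EpiLC level, and at 0.432 and 0.921 in dCD EpiSC. The WT mean was 52.6 times the dCD mean and the log2 difference of -4.46 ± 0.22 was the lowest of all 12717 genes tested. Trap1a was at 21.8 and 22.2 in WT EpiSC and at 4.80 and 6.97 in dCD EpiSC, 3.74 times lower (-1.76 ± 0.18), with 65 genes lower still.

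The Rhox genes were low in EpiSC of either genotype. Rhox5 was at 6.73 and 6.99 in WT EpiSC and at 4.76 and 5.85 in dCD EpiSC (log2 difference -0.32 ± 0.19), with a gap between the groups smaller than that between the 2 dCD libraries. Rhox6 was listed at 0 in all 4 EpiSC libraries. Rhox9 was listed at 0 in 1 library of each genotype and at 0.0310 and 0.0354 in the others, so no fold is given for either gene.

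In EpiSC 4 of the 7 genes passed the test, Xlr3a and Xlr3b higher and Trap1a and Fmr1nb lower, where 14.5% of all genes tested did (7.57% higher, 6.91% lower). Libraries of dCD lay above those of WT for 35.0% and below for 36.5% of all genes tested. Here too the count follows from how the genes were chosen.

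Set side by side across the separately normalised tables, the order of the 4 groups differed from gene to gene. Rhox5, Rhox6 and Rhox9 were highest in dCD EpiLC and then in WT EpiLC. Xlr3a and Xlr3b were highest in the dCD libraries of both stages, and for Xlr3a the gap between the dCD EpiLC and dCD EpiSC libraries was smaller than the gap between the 2 dCD EpiSC libraries. Trap1a was highest in dCD EpiLC, then in WT EpiSC, and its WT EpiLC and dCD EpiSC values overlapped. Fmr1nb was high in 3 groups and near 0 in dCD EpiSC. Where 1 of the groups was near 0, the pseudocount moved the size of the log2 difference. For Rhox6 in EpiLC the difference was 4.03 with a pseudocount of 0.1 and 0.85 with 5, for Rhox9 3.13 and 0.49, for Fmr1nb in EpiSC -5.60 and -2.84, and for Xlr3b in EpiSC 4.17 and 1.55.

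**Figure D2:**
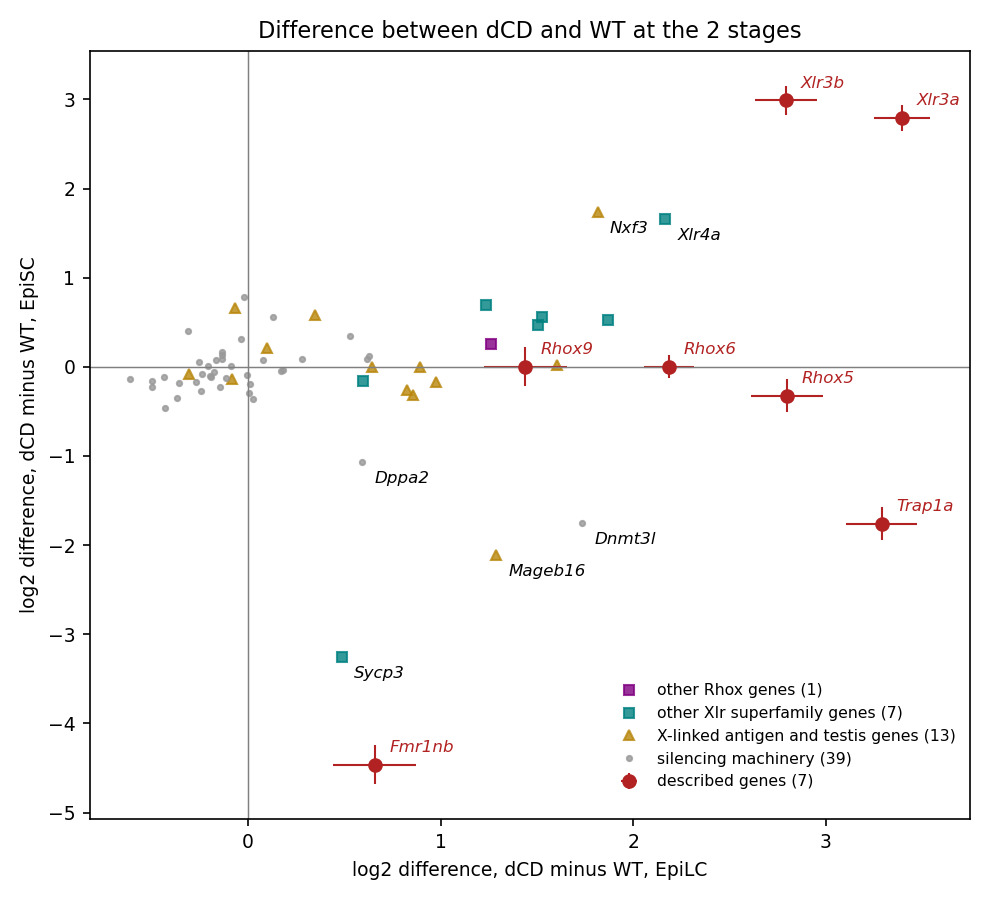
Difference between dCD and WT in EpiLC (horizontal axis) and in EpiSC (vertical axis), both in log2(normalised abundance + 1), for the 7 described genes in red with 1 SE in each direction and for the tested genes of 4 lists, with the number of genes in brackets. Xlr3a and Xlr3b lie at the upper right, Trap1a and Fmr1nb in the lower right quadrant, and the 3 Rhox genes to the right of 0 close to the horizontal line.

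Rhox5 made up nearly all of the Rhox signal. Summed over the 42 annotated Rhox genes and pseudogenes, the abundance was 13.4 and 15.2 in WT EpiLC, 117 and 82.5 in dCD EpiLC, 7.77 and 7.60 in WT EpiSC and 5.23 and 6.73 in dCD EpiSC, of which Rhox5 gave 75.0% to 91.9%. Of the 39 Rhox genes other than Rhox5, Rhox6 and Rhox9, 13 were listed at 0 in all 8 libraries and 37 stayed under 1 in each. The exceptions were Rhox13 and Rhox1, the latter (named after its values were seen) at 1.43 and 0.587 in dCD EpiLC and 0.250 and 0.184 in WT EpiLC.

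Rhox13 (38121219 to 38129967, plus strand), a testis gene at the far end of the cluster, passed the filter and was tested. It would not have passed through WT libraries, of which only 1 reached a value of 1, so the filter favoured a higher value in dCD. It was at 1.44 and 0.928 in WT EpiLC and at 5.81 and 2.96 in dCD EpiLC (log2 difference 1.26 ± 0.26, adjusted p = 0.0288). This call ended under 10 of the alternatives, with an adjusted p of 0.156 without EpiLC WT replicate 2, 0.094 without EpiLC WT replicate 1 and 0.0822 with a pseudocount of 0.1. In EpiSC it was listed at 0 in both WT libraries and at 0.0811 and 0.321 in dCD, and it was not called (adjusted p = 0.604).

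The other genes of the Xlr superfamily, the X-linked Xlr, Xlr4 and Xlr5 genes, Xlr3c and the autosomal Sycp3, were looked at to see whether relatives of the Xlr3 copies changed too. Of 18 such genes 7 passed the filter on low values and 5 were called higher in dCD EpiLC (Xlr3c, Xlr4a, Xlr4b, Xlr5a and Xlr5b), against 7.56% of all genes, while 0 were called lower, the same as at an unadjusted p under 0.05. The median log2 difference of the 7 was 1.51, against 0.03 over all genes tested. Just 2 of the 7, Sycp3 and Xlr, would have passed the filter through WT libraries, and neither was called in EpiLC. The 5 called genes were under 1 in every WT library and passed through dCD libraries alone. Their count and the median therefore follow from the filter. Without it 12 genes could be tested and 6 were called higher in EpiLC (median 0.77).

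Xlr4a (73074345 to 73082478, minus strand) was at 0.185 and 0.0923 in WT EpiLC and at 4.48 and 3.75 in dCD EpiLC (log2 difference 2.16 ± 0.28, adjusted p = 0.00509). Xlr5a, whose annotated span holds other genes of the cluster, was at 0.0650 and 0.0376 in WT and at 3.50 and 2.28 in dCD (1.87 ± 0.20, adjusted p = 0.00222), and Xlr4b at 0.0702 and 0.0734 in WT and at 2.17 and 1.92 in dCD (1.51 ± 0.12, adjusted p = 0.000848). Xlr3c was at 0.668 and 0.649 in WT and at 3.01 and 2.81 in dCD (1.24 ± 0.14, adjusted p = 0.0027). These 4 calls held under every alternative in which the genes were tested. The filter admitted the genes through dCD libraries alone and so favoured a higher value in dCD, and the calls are no support of their own. Xlr5b, outside the naming rule and named as the fifth gene called, was at 0.101 and 0 in WT and at 1.97 and 2.08 in dCD, and its call was lost when EpiLC WT replicate 1 (adjusted p = 0.0582) or replicate 2 (0.0664) was left out.

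In EpiSC 3 of the 7 were called higher and 1 lower, against 7.57% and 6.91% of all genes. The 3 called higher were among the genes that passed the filter through dCD libraries alone. Xlr4a was at 0.136 and 0 in WT and at 3.63 and 1.44 in dCD EpiSC (log2 difference 1.66 ± 0.28, adjusted p = 0.0105), Xlr3c at 0.209 and 0.204 in WT and at 1.19 and 0.756 in dCD (0.70 ± 0.14, adjusted p = 0.0171), and Xlr4b rose by 0.47 ± 0.12 (adjusted p = 0.0449). All 3 calls ended without either EpiSC WT library, with an adjusted p of 0.0543 and 0.0917 for Xlr4a, 0.0903 and 0.116 for Xlr3c and 0.102 and 0.258 for Xlr4b without replicate 1 and without replicate 2. The Xlr3c call also ended without EpiSC dCD replicate 1 (adjusted p = 0.0694), and that of Xlr4b without either EpiSC dCD library (0.175 and 0.104) or either EpiLC WT library (0.0881 and 0.0883). The log2 differences of Xlr4b and Xlr5a were smaller in EpiSC than in EpiLC by the test of the difference between stages (adjusted p = 0.0132 and 0.0268). This test did not pass for Xlr3c (0.137) or Xlr4a (0.502). Xlr4b and Xlr5a reached a value of 1 in the dCD EpiLC libraries alone. The filter thus favoured a larger difference in EpiLC, and nothing is read from their change. Of all genes tested 10.4% passed the test of the difference, with 3.66% shifted up and 6.72% shifted down from EpiLC to EpiSC. Only 15.21% of the 31-base stretches of Xlr4a and 5.487% of those of Xlr5b were their own, so values of single Xlr4 and Xlr5 genes are uncertain. All 15 Xlr3, Xlr4 and Xlr5 genes together summed to 3.62 and 4.02 in WT and 57.3 and 51.1 in dCD EpiLC, and to 2.64 and 2.48 in WT and 38.1 and 30.1 in dCD EpiSC.

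Sycp3 on chromosome 10, which encodes the axial element protein of meiotic chromosomes, went the way of Fmr1nb instead. It was at 24.5 and 26.2 in WT and 39.3 and 32.8 in dCD EpiLC (log2 difference 0.49 ± 0.19, adjusted p = 0.173), and it fell from 9.26 and 13.7 in WT to 0.355 and 0.226 in dCD EpiSC (-3.25 ± 0.19, adjusted p = 0.000368, between 0.000401 and 0.0111 over the alternatives). The difference between the stages passed the test (adjusted p = 0.00106).

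**Figure D3:**
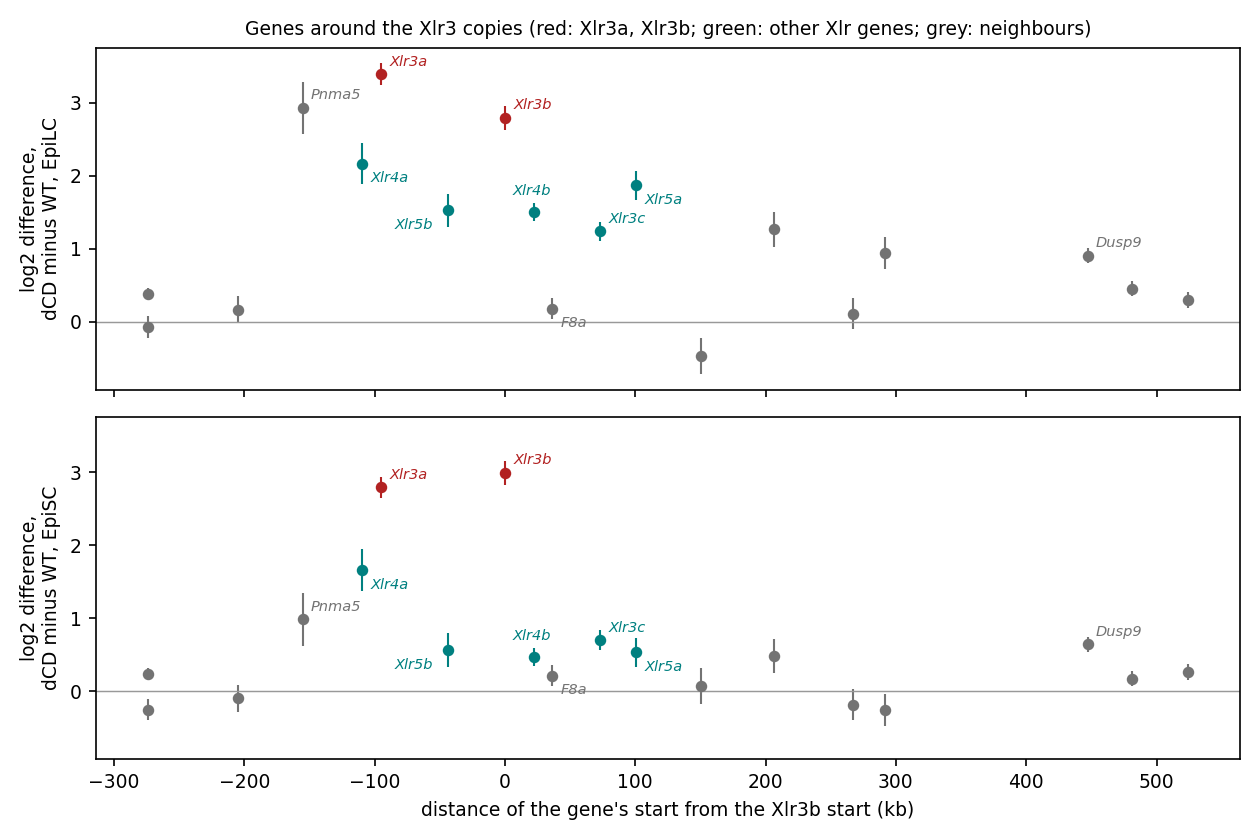
Log2 difference between dCD and WT (1 point per tested gene, bar of 1 SE) against the distance of each gene's start from the Xlr3b start in kb, with EpiLC in the upper and EpiSC in the lower panel. Xlr3a and Xlr3b are red, other Xlr genes green and the remaining neighbours grey. The red points are the highest in both panels apart from Pnma5, which lies above Xlr3b in EpiLC, and F8a inside the cluster lies near 0.

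Genes beside the 7 were looked at within 500 kb. Of 62 neighbours 21 were tested, and 19 of these would have passed the filter through WT libraries. In dCD EpiLC 6 were called higher and 1 lower (28.6% and 4.76% of those tested, against 7.56% and 2.57% of all genes). Among all tested genes of the X chromosome, where the neighbours lie, the shares were 13.0% and 4.33%. Gm18336, among the 6, would not have passed through WT libraries. In dCD EpiSC 2 neighbours were called higher and 1 lower (9.52% and 4.76%), which is near the shares of all genes (7.57% and 6.91%). The median log2 difference of the 21 was 0.18 in EpiLC and 0.21 in EpiSC, against 0.03 and -0.01 over all genes tested. Pnma5, of the paraneoplastic antigen family, starts 155 kb from Xlr3b on the side of Xlr3a. It rose from 5.95 and 6.24 in WT to 55.7 and 50.7 in dCD EpiLC (log2 difference 2.93 ± 0.36, adjusted p = 0.0039), a call that held under every alternative, and was at 2.98 and 2.61 in WT and 3.83 and 10.6 in dCD EpiSC (adjusted p = 0.126).

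F8a, a single-exon gene between Xlr4b and Xlr3c that encodes a huntingtin-associated protein, had a log2 difference of 0.18 in EpiLC and 0.21 in EpiSC and was not called at either stage. It is outside the naming rule and is given for its place in the cluster. Dusp9, a MAP kinase phosphatase gene 447 kb from Xlr3b, was higher in dCD at both stages (51.2 and 49.8 to 96.7 and 94.5 in EpiLC, adjusted p = 0.00345, and 41.2 and 38.3 to 57.2 and 68.0 in EpiSC, adjusted p = 0.0103). Its EpiSC call ended without EpiSC WT replicate 1 (adjusted p = 0.0546), WT replicate 2 (0.105) or dCD replicate 2 (0.0764).

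Next to Fmr1nb, the gene model Gm14698 fell from 10.4 and 9.69 to 5.17 and 6.11 in dCD EpiLC (adjusted p = 0.0147, 0.12 without EpiLC WT replicate 1 and 0.0765 without replicate 2), and Gm6812 fell from 2.50 and 1.97 to 1.04 and 1.24 in dCD EpiSC (adjusted p = 0.0327, and 0.0665 to 0.166 when any single EpiLC WT, EpiSC WT or EpiSC dCD library was left out). Gm18336, near the Xlr cluster, rose from 1.03 and 0.797 to 2.54 and 4.99 in dCD EpiLC (adjusted p = 0.0203, and 0.129 with EpiLC fitted alone). Its call also ended when either EpiLC WT library or either EpiSC WT library was left out. It would not have passed the filter through WT libraries, so the filter favoured a higher value in dCD. Nrk, a kinase gene of the placenta that lies near Trap1a, rose from 1.92 and 1.71 to 4.12 and 5.02 in dCD EpiSC (adjusted p = 0.0203, between 0.0607 and 0.143 without 1 of the EpiSC libraries).

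A list of 85 further X-linked genes known as tumour and testis antigens or for testis or early germ cell expression set the 7 in a wider group. Of these, 69 stayed under 1 in all 8 libraries and 35 of those were listed at 0 throughout. Of the 13 tested, 10 would have passed the filter through WT libraries. The others, Nxf3, Tktl1 and Fthl17a, were under 1 in every WT library and passed through dCD libraries alone. In dCD EpiLC 8 of the 13 were called higher, these genes among them. The number called lower was 0, with 1 lower at an unadjusted p under 0.05. In EpiSC 3 were called higher and 1 lower. The median log2 difference was 0.83 in EpiLC and 0.00 in EpiSC. Without the filter 50 could be tested, of which 8 were called higher in EpiLC (median 0.04) and 3 higher and 2 lower in EpiSC (median 0.00). For comparison, of the 508 tested genes of the X chromosome 13.0% were called higher and 4.33% lower in EpiLC, and 12.4% and 7.28% in EpiSC.

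Mageb16, a MAGE antigen family gene, had the pattern of Trap1a. It rose from 7.87 and 9.67 in WT to 24.3 and 21.3 in dCD EpiLC (log2 difference 1.29 ± 0.15, adjusted p = 0.003) and fell from 4.04 and 4.46 to 0.161 and 0.265 in dCD EpiSC (-2.11 ± 0.15, adjusted p = 0.000584), and both calls held under every alternative. A pseudogene copy shares 55.57% of its 31-base stretches, so part of this signal may belong to the copy. Nxf3, of the nuclear RNA export factor family, passed the filter through dCD libraries alone and had the pattern of the Xlr3 genes. It rose from 0.835 and 0.615 to 4.01 and 6.32 in dCD EpiLC (1.81 ± 0.21, adjusted p = 0.00315) and from 0.199 and 0.173 to 3.44 and 2.51 in dCD EpiSC (1.73 ± 0.21, adjusted p = 0.00317), under every alternative in which it was tested, which leaves out the filter on a mean of at least 5.

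Other listed genes were called in EpiLC alone. Fthl17c, a ferritin-like gene of early embryos and germ cells that shares most of its sequence with other Fthl17 genes, rose from 3.25 and 3.57 to 15.1 and 10.1 (log2 difference 1.6 ± 0.18, adjusted p = 0.00302, and 0.053 with EpiLC fitted alone) and was listed at 0 in 3 of the 4 EpiSC libraries and at 0.0371 in the fourth. Tex11, needed for meiosis in the testis, rose from 1.88 and 1.58 to 3.99 and 3.87 (adjusted p = 0.00578, 0.0555 without EpiLC WT replicate 2). For both the stages differed by the test of the difference (adjusted p = 0.0125 and 0.00715). Taf7l, Tktl1, Nxf7 and Fthl17a were the remaining 4 called higher, with log2 differences from 0.64 to 0.98. All 4 calls ended without EpiLC WT replicate 1 (adjusted p = 0.0689, 0.061, 0.104 and 0.125), and those of Taf7l, Nxf7 and Fthl17a also without replicate 2 (0.0559, 0.0737 and 0.0621). In EpiSC the widely expressed Maged1 rose from 144 and 130 to 210 and 221 (adjusted p = 0.00548) and Maged2 from 62.0 and 56.3 to 87.1 and 90.1 (adjusted p = 0.0134). The Maged1 call ended without EpiSC WT replicate 2 (adjusted p = 0.0707) or dCD replicate 2 (0.0573), and the Maged2 call without any one of the 4 EpiSC libraries (0.0574 to 0.129).

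Over all genes tested, 86 (0.676%) were called higher in dCD EpiLC and lower in dCD EpiSC, and 6 of these lie on the X chromosome, among them Trap1a and Mageb16. Another 208 (1.64%) were called higher at both stages, 22 of them on the X chromosome, with Xlr3a and Xlr3b among them. Of all 12717 genes tested, 508 lie on the X chromosome. Gm15068 and Gm15069, also among the 6, had the same log2 differences (1.34 in EpiLC and -0.78 in EpiSC) and may be 1 signal. The counts include genes chosen on these comparisons, so nothing is read from them. The 2 stages share no library, but the fit gave each gene a common estimate of the spread for both. The calls at the 2 stages are therefore not independent.

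**Figure D4:**
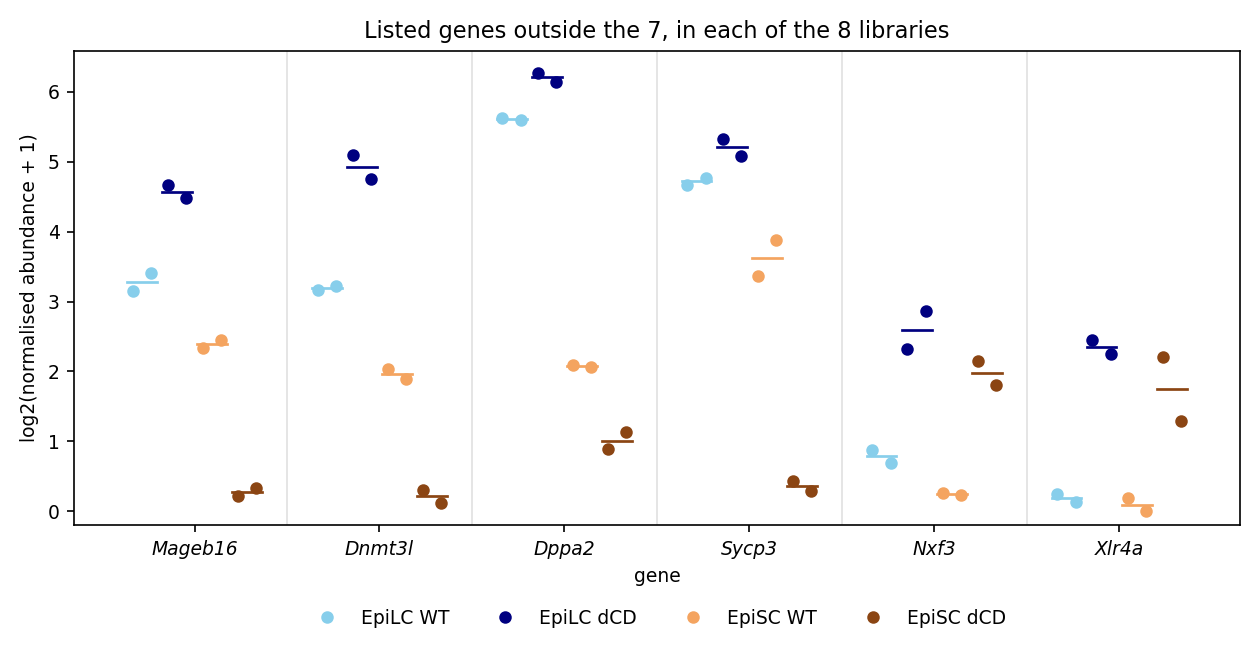
Abundance of 6 genes outside the 7 in each library, as log2(normalised abundance + 1), with 1 point per library, a short bar at the group mean and colours for the 4 groups. Mageb16, Dnmt3l, Dppa2 and Sycp3 have their lowest points in dCD EpiSC, while Nxf3 and Xlr4a are higher in dCD at both stages.

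Genes of this class are kept silent in most cells by DNA methylation, by H3K9 methylation and by the Polycomb complexes PRC1.6 and PRC2, and 39 genes of this machinery were tested. Of these, 4 were called higher and 0 lower in dCD EpiLC, with 4 lower at an unadjusted p under 0.05, and 2 were called higher and 3 lower in dCD EpiSC. The median log2 difference was -0.14 in EpiLC and -0.08 in EpiSC, and shares of 10.3% and 12.8% called compare with 10.1% and 14.5% of all genes.

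Dnmt3l and Dppa2 were called in opposite directions at the 2 stages, like Trap1a and Mageb16. Dnmt3l, which encodes a cofactor of the de novo DNA methyltransferases and is itself a gene of germ cells and the early embryo, rose from 7.94 and 8.31 in WT to 33.2 and 25.9 in dCD EpiLC (log2 difference 1.73 ± 0.16, adjusted p = 0.00132) and fell from 3.10 and 2.72 to 0.237 and 0.0847 in dCD EpiSC (-1.75 ± 0.16, adjusted p = 0.0011), under every alternative. Dppa2, which with Dppa4 opens early embryonic and germline genes, rose from 48.6 and 47.6 to 76.4 and 69.6 in EpiLC (0.59 ± 0.12, adjusted p = 0.0274) and fell from 3.26 and 3.18 to 0.853 and 1.19 in EpiSC (-1.07 ± 0.12, adjusted p = 0.00275). Its EpiLC call ended under 8 of the alternatives, with an adjusted p of 0.159 and 0.155 without EpiLC WT replicate 1 and replicate 2, 0.0642 without dCD replicate 1, and 0.0676 and 0.0674 without EpiSC WT replicate 1 and replicate 2.

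The de novo methyltransferase gene Dnmt3a rose from 165 and 153 to 225 and 269 in dCD EpiLC (adjusted p = 0.0151, 0.0795 and 0.108 without EpiLC WT replicate 1 and replicate 2), and Tet2, which encodes an enzyme that oxidises 5-methylcytosine, from 1.06 and 0.742 to 1.66 and 1.82 (adjusted p = 0.0449, up to 0.239 and over 0.05 without any single library). In EpiSC the H3K9 methyltransferase gene Suv39h1 rose from 38.9 and 36.7 to 64.2 and 67.2 (log2 difference 0.78 ± 0.09, adjusted p = 0.00225) under every alternative, and L3mbtl2, a PRC1.6 subunit gene, fell from 63.2 and 61.9 to 49.6 and 47.2 (-0.36 ± 0.08, adjusted p = 0.0294, and 0.0695 to 0.199 when any single EpiLC WT, EpiSC WT or EpiSC dCD library was left out).

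The mutated genes themselves were transcribed in dCD cells, as point mutations allow, so their level does not check the genotype. Kmt2c was at 5.79 and 3.55 in WT EpiLC, 2.57 and 5.97 in dCD EpiLC, 4.72 and 5.26 in WT EpiSC and 6.06 and 6.98 in dCD EpiSC. Kmt2d was at 7.15 and 4.15 in WT and 2.72 and 7.59 in dCD EpiLC, and at 4.86 and 4.96 in WT and 6.70 and 7.93 in dCD EpiSC. In EpiLC both genes were lower in WT replicate 2 and dCD replicate 1 than in the other libraries. Of 9 tested subunit genes of their complex, Ash2l was called higher in dCD EpiLC (111 and 107 to 164 and 151, adjusted p = 0.0125, but 0.09 and 0.0986 without EpiLC WT replicate 1 and replicate 2), a share of 11.1% beside 10.1% of all genes, and limma called 0 in EpiSC, the same as at an unadjusted p under 0.05. Kdm6a, named for its known link to Rhox6 and Rhox9, was at 19.2 and 14.9 in WT and 9.81 and 18.6 in dCD EpiLC, groups that overlap (adjusted p = 0.574).

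Among the 7 genes, values of log2(abundance + 1) centred within each stage correlated most for Rhox5 and Rhox6 (Pearson r = 0.988) and for Xlr3a and Xlr3b (0.985) over the 8 libraries, and r was 0.928 for Rhox5 and Trap1a and -0.61 for Xlr3b and Fmr1nb. These values follow from the group differences and from the reads that the Xlr3 copies share, and describe 8 points that form 4 pairs of libraries. Among 8960 genes with a mean of at least 5, those most like Rhox5 were Ifitm1, Srxn1 and Fbxo6 (r from 0.993 to 0.995). Those most like Rhox6 were Gm6763, Gm8764 and Spp1 (0.996 to 0.999), and those most like Rhox9 were Stxbp2, Capg and Csrp1 (0.992 to 0.995). Gm6763 and Gm8764 had the same values in all 8 libraries, so they are not separate matches. Many further genes also had a high r to each of the 7. The nearest to Xlr3a were Apln, Tapbpl and Sprr2a2 (0.990 to 0.997), and Fhl2 and Apln were among those nearest to Xlr3b (0.994 and 0.990). For Trap1a they were Tex19.1, a germline and placental gene, Gm8113 and Tlcd2 (0.989 to 0.994), and for Fmr1nb Prr19, Mfng and Rbmxl2 (0.992 to 0.995).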

How the data were processed

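PolyA RNA of 8 mouse libraries was sequenced with a stranded TruSeq protocol. The authors estimated transcript abundance with kallisto and summed it to genes in sleuth (Ensembl annotation, mm10), with tool versions and the k-mer length not given in the sources used here. The deposited signal values are headed TPM but were multiplied by 1 factor per library, since their sums differ and 1 exceeds the total that TPM can have. Each stage has its own table, and 6 columns of 2i ESC with no labelled sample were not used. Of 32334 listed Ensembl genes 99.3% matched a symbol in the GENCODE annotation of GRCm38, and 42.2% of values were 0. Depth is unknown, so no interval or floor based on counts is given.

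Values were tested as log2(value + 1) for the 12717 genes with at least 1 in at least 2 libraries. limma 3.58.1 (R 4.3.3, empirical Bayes with a mean-variance trend, 1 mean per group over all 8 libraries) compared dCD with WT within each stage and the 2 differences with each other, with Benjamini-Hochberg adjustment over all genes tested and a call at an adjusted p under 0.05. The 7 genes, the gene lists and the neighbours within 500 kb were chosen with earlier results of these data known. From each list and the neighbours the text names up to 4 genes a stage with the smallest p among those called and those called in opposite directions, and for each of the 7 genes the 3 most correlated genes with a mean of at least 5, of which 1 is not reported here. The alternatives were pseudocounts of 0.1 and 5, no filter or a mean of at least 5, quantile normalization, each stage fitted alone, a replicate block, the summed Xlr3 copies and leaving out each library.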

Additional observations from a re-analysis of the deposited data

Results flagged for a closer look

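For 17 of the named genes outside the 7, the log2 difference between dCD and WT changed between EpiLC and EpiSC by limma's test of that change. These genes were named after being called at a stage on the same values. Passing this test was thereby favoured in advance, so nothing is read from their count. Of all genes tested 10.4% passed it. The change is given here as the EpiSC minus the EpiLC difference with its adjusted p. The change was -3.74 for Sycp3 (0.00106), -3.49 for Dnmt3l (0.000769), -3.40 for Mageb16 (0.000769) and -1.66 for Dppa2 (0.00289). It was -1.58 for Fthl17c (0.0125), -1.34 for Xlr5a (0.0268), -1.17 for Tex11 (0.00715), -1.04 for Xlr4b (0.0132), -0.94 for Gm6812 (0.0283), -0.70 for Ash2l (0.0157), -1.15 for Taf7l (0.0154), -1.09 for Nxf7 (0.0173), -0.89 for Tktl1 (0.0268) and -0.65 for Fthl17a (0.0485), and 0.91 for Gm14698 (0.0234), 0.81 for Suv39h1 (0.00915) and 0.72 for Maged1 (0.018). Of these, Mageb16, Dnmt3l and Dppa2 were called in opposite directions at the 2 stages.

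Among the 7 genes, both dCD libraries lay above both WT libraries in EpiLC and below them in EpiSC for Fmr1nb (change of -5.12), Trap1a (-5.05) and Rhox5 (-3.12). These differences were not tested, because the genes were chosen on them.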

How the results depend on the processing

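The log2 differences of the 7 genes in EpiLC, and of the 5 other than Rhox6 and Rhox9 in EpiSC, kept their sign under all alternatives run, and 172 of 194 values moved by less than the replicate SD. The other 22 came from the pseudocounts, from summing the Xlr3 copies (3.26 in EpiLC and 3.17 in EpiSC) and, for Xlr3b in EpiSC, from quantile normalization. Counts of calls moved more, and the cause was not tested beyond the smaller number of genes or libraries in some fits. Genes called in EpiLC, in EpiSC and for the difference between stages were 1288, 1842 and 1319. A mean of at least 5 left 689, 969 and 553. Fitting each stage alone gave 349 in EpiLC and 3511 in EpiSC. Leaving out 1 library gave 358 to 3280, 507 to 3016 and 426 to 3225. Same-numbered libraries deviated in opposite directions in EpiLC (r = -0.58) and without relation in EpiSC (-0.01), so the numbers do not pair the libraries as written, while in EpiLC libraries with different numbers deviated together. With a replicate block the counts were 351, 582 and 304, and with the block crossed in EpiLC, an alternative added after seeing the data, 2091, 2692 and 2076, with 1 MLL3/4 complex gene in EpiSC. 

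With the replicate block the lists gave 2 other Xlr genes in EpiSC, 3 and 2 X-linked antigen genes in EpiLC and EpiSC, 1 and 3 silencing genes, 0 complex genes in EpiLC, and 1 and 0 neighbours. Each stage alone gave 0 other Rhox, 2 antigen, 1 silencing, 0 complex and 3 neighbour genes in EpiLC, and 10 silencing, 2 complex and 8 neighbour genes in EpiSC. A mean of at least 5 gave 0 other Rhox and 0 other Xlr genes and 1 antigen gene in EpiLC, and 1 other Xlr and 1 neighbour gene in EpiSC. A pseudocount of 0.1 gave 0 other Rhox and 2 silencing genes in EpiLC, and quantile normalization 0 other Rhox genes. Leaving out 1 library gave in EpiLC 0 to 1 other Rhox, 4 to 6 other Xlr, 4 to 8 antigen, 1 to 17 silencing, 0 to 2 complex and 2 to 10 neighbour genes, and in EpiSC 0, 1 to 4, 2 to 4, 3 to 5, 0 and 0 to 6.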
